A study of Homo sapiens with 8 samples.

Results

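The 39 HOX genes are protein-coding genes named HOXA, HOXB, HOXC or HOXD with a number, and they were taken by name from the 19707 protein-coding genes that could be tested. They lie in 4 clusters, with 11 genes in HOXA, 10 in HOXB, 9 in HOXC and 9 in HOXD. Chromatin immunoprecipitation with sequencing (ChIP-seq) was done in KGN cells, an established line from a human granulosa cell tumour that stands in for the steroid-making cells of the ovarian follicle. One group was given 1 mM butyrate for 6 h and the control group none; butyrate, a product of gut bacteria, blocks the enzymes that take acetyl groups off histones. H3K9ac and H4K16ac were each read in 1 library per condition and an IgG antibody was run beside them. All cells are of this 1 line and nothing was replicated, so every difference below is one between 2 libraries and none was tested.

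HOX genes encode homeodomain transcription factors that give cells their position along the body axis. Within a cluster they stand in the order in which they are used, with the low-numbered paralog groups used at the head end and the high-numbered ones towards the tail. Genes of paralog groups 9 to 13 also pattern the limbs and the urogenital tract, where HOXA10, HOXA11 and HOXA13 mark out the uterus and the lower tract. Silent HOX clusters are held by Polycomb complexes, and active stretches carry acetylated histones over long runs of neighbouring genes. H3K9ac is found mainly at active promoters, and H4K16ac, deposited mainly by the acetyltransferase KAT8, goes with open chromatin.

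The values are MACS2 peaks as the authors deposited them, each with a fold over background and a −log10 q, which is the strength of the call. Any peak with a base at most 1 kb from a gene's start counts as its promoter peak. The positions, read as build GRCh38, put HOXA at chr7:27092993-27200091, HOXB at chr17:48528526-48728750, HOXC at chr12:53938831-54056030 and HOXD at chr2:176087487-176190907. The promoters on which the results turn are given from RefSeq (GRCh38.p14), from 250 bases before the start to 50 after it, 5′ to 3′ on the gene's strand, with every CG dinucleotide in capitals. HOXD13 and HOXA6 had H3K9ac with butyrate and none in control, HOXD11 had a far stronger peak with butyrate, HOXA13 had a strong peak in both conditions, and HOXD1 and HOXA9 had no peak in either.
HOXD13, chr2:176092471-176092770, plus strand: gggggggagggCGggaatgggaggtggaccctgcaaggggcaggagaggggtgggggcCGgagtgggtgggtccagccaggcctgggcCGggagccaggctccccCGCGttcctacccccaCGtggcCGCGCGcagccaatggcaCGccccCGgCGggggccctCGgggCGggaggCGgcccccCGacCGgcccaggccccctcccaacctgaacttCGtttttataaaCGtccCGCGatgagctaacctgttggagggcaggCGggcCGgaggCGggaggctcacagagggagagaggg
HOXA6, chr7:27147725-27148024, minus strand: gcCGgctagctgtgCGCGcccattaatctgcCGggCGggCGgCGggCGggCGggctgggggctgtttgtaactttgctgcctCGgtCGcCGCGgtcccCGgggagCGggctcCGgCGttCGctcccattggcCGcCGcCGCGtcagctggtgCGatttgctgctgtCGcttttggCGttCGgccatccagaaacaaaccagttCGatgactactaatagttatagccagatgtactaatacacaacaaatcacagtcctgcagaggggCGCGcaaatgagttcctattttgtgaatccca
HOXD11, chr2:176107030-176107329, plus strand: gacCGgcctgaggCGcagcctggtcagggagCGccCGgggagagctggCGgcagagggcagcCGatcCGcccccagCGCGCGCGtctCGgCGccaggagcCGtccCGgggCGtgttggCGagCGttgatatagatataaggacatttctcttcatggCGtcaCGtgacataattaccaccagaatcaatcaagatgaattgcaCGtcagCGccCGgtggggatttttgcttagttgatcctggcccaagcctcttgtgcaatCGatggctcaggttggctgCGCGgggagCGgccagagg
HOXA13, chr7:27200042-27200341, minus strand: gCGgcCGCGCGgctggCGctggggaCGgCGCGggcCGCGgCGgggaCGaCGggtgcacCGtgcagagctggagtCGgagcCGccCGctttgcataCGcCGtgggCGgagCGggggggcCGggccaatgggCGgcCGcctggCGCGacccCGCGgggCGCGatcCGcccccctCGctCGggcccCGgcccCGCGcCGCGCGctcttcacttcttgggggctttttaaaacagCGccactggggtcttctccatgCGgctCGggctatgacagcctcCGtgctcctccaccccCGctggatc
HOXD1, chr2:176188418-176188717, plus strand: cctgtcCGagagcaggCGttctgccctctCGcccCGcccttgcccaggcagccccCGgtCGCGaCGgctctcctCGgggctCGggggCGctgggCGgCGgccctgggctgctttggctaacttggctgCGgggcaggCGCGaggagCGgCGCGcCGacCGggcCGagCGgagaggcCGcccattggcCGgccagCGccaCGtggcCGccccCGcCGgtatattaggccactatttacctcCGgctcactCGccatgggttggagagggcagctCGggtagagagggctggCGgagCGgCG
HOXA9, chr7:27165488-27165787, minus strand: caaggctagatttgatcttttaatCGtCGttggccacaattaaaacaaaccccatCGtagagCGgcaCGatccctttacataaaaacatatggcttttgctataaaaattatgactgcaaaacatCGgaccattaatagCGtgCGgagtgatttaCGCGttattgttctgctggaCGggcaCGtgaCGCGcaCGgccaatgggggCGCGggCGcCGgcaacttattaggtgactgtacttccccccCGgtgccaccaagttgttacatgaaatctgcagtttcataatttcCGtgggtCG
The 300 bases of HOXA13 hold 44 CG dinucleotides and those of HOXD1 hold 36, so the promoter with H3K9ac in both conditions and the one with none are both rich in CG. HOXA6 has 29, HOXD11 has 27, HOXD13 has 24 and HOXA9 has 22, against a median of 21 over 22155 starts of all protein-coding genes in the same table.

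The promoter table held 20 of the 39 HOX genes, with 26 starts. Their median was 22.5 CG dinucleotides, from 0 to 44. By H3K9ac at the same start, the median was 11 for 5 starts with a peak under butyrate alone, 27 for 11 starts with a peak in both conditions and 17 for 10 starts with none. Over all protein-coding genes the medians were 13, 27 and 6. The HOX starts with no H3K9ac peak had the higher median, but their values ran from 4 to 36. HOXA3 entered with several starts in each group, and HOXC4 and HOXC5 entered with the same start, so starts were not independent. Under butyrate alone the HOXA3 starts had 6 and 0, against 11 for HOXA2, 24 for HOXD13 and 29 for HOXA6. No trait of HOX genes is therefore read from these medians. The sequence TATAAA, searched on both strands, was present in 5 of 26 HOX starts (19.2%), against 9.47% of all starts. They were those of HOXD13 and HOXA9, both starts of HOXA10 and the outermost start of HOXA3. The HOXD13 start had H3K9ac with butyrate alone, the HOXA10 starts in both conditions and the HOXA9 and HOXA3 starts in neither.

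The libraries differed before any HOX gene was considered. The H3K9ac list held 79356 peaks with butyrate and 22215 in control, and their implied depths were 29.4 M and 24.3 M (M, 1000000 reads). The H4K16ac list held 33752 peaks with butyrate and 73586 in control, at implied depths of 23.8 M and 17.4 M. The part of depth and list length in the differences below was not tested beyond the values given for lists of equal length. The H4K16ac lists were cut at a loose limit: 1.13% of peaks with butyrate and 39.6% in control had a q of 0.05 or less. IgG gave 2 peaks with butyrate and 6 in control, none of them in a HOX cluster. Of 12 granulosa genes, 6 had a H3K9ac promoter peak with butyrate and 3 in control, beside 63.9% and 54.7% of all protein-coding genes. FOXL2, CYP11A1 and INHA had one in both, while FSHR, NR5A1, CYP19A1, AMH, WT1 and GATA4 had none in either. Of 3 epithelial genes KRT18 had a peak in both conditions and EPCAM and CDH1 had none in either. The blood genes PTPRC, CD3E and SPI1 had none, and the neuron genes SNAP25, RBFOX3 and NEUROD2 had one with butyrate alone.

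H3K9ac stood at most HOX promoters in both conditions. With butyrate 27 of 39 genes had a promoter peak (69.2%, exact 95% interval 52.4 to 83, counting error only), beside 63.9% of all protein-coding genes. In control it was 24 of 39 (61.5%, 44.6 to 76.6), beside 54.7% of all genes. The same 24 genes had one with butyrate, beside 54.5% of all genes with a peak in both. HOXC4, HOXC5 and HOXC6 share 1 RefSeq start and so 1 peak, which makes the 24 genes 22 separate starts. In bulk cells, a mark in fewer cells and a weaker mark in each cell cannot be told apart.

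The HOX genes with a H3K9ac promoter peak with butyrate and none in control were HOXD13, HOXA6 and HOXA2, 3 in all. They were 7.69% of the 39 genes (1.62 to 20.9), beside 9.31% of all genes, and 20% of the 15 HOX genes without a control peak (4.33 to 48.1), beside 20.6% of all such genes. The HOX count was thus close to the background at these settings. Limited to peaks whose −log10 q reached 5, the count was 6 of 39, beside 7.53% of all genes. Limited to peaks whose fold reached 5, it was 5 of 39, beside 8.18%. No HOX gene had a peak in control alone (0 of 39, up to 9.03%), beside 0.183% of all genes. Of the 24 HOX genes with a control peak 0 lacked one with butyrate, beside 0.334% of all such genes.

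HOXD13, needed for the digits and the lower urogenital tract, had the strongest of these 3 peaks. Its summit had a fold of 7.11 and a −log10 q of 16.69 with butyrate, in a peak of 912 bp at chr2:176092742-176093653. The nearest control peak lay 4487 bp from its starts. The peak covered 29 of the 300 promoter bases printed above, so most of it lay downstream of the start. HOXA6, a gene of the middle of the cluster, had a peak of 1896 bp at chr7:27147910-27149805 with a −log10 q of 11.52 with butyrate. The nearest control peak lay 1107 bp from its start, just outside the 1 kb window, and that butyrate peak overlapped 2 control peaks. HOXA6 therefore had H3K9ac nearby in both conditions. HOXA2, which patterns the second branchial arch, had a peak of 251 bp with a −log10 q of 2.07, the narrowest width in its list. The nearest control peak of HOXA2 lay 5099 bp away.

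The 12 HOX genes with no H3K9ac promoter peak in either condition were HOXA3, HOXA9, HOXB1, HOXB4, HOXB5, HOXC8, HOXC12, HOXD1, HOXD3, HOXD4, HOXD10 and HOXD12. HOXD held 5 of them. Some lay beside acetylated neighbours: the nearest butyrate peak was 1240 bp from the start of HOXA3 and 1605 bp from that of HOXA9. HOXA3 had peaks in both conditions at other starts that RefSeq gives it. HOXB1, which acts in the hindbrain, was 6160 bp from the nearest butyrate peak and 11256 bp from the nearest control peak. HOXA9 was thus a gap in H3K9ac, while HOXA10 beside it, and HOXA11 and HOXA13 further along, were covered. The nearest H4K16ac peak lay 1871 bp from the HOXA9 starts with butyrate and 1674 bp in control.

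By paralog group, the 4 genes of group 13 all had H3K9ac with butyrate and 3 of them in control. Neither gene of group 12, HOXC12 and HOXD12, had one in either condition. In groups 1 to 3 there were 4 of 8 genes with butyrate and 3 in control, in groups 4 to 8 there were 11 of 15 and 10, and in groups 9 to 13 there were 12 of 16 and 11. Each of these 3 sections thus differed by 1 gene between the conditions. By cluster the counts were 9 with butyrate and 7 in control in HOXA, 7 and 7 in HOXB, 7 and 7 in HOXC, and 4 and 3 in HOXD.

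**Figure D1:**
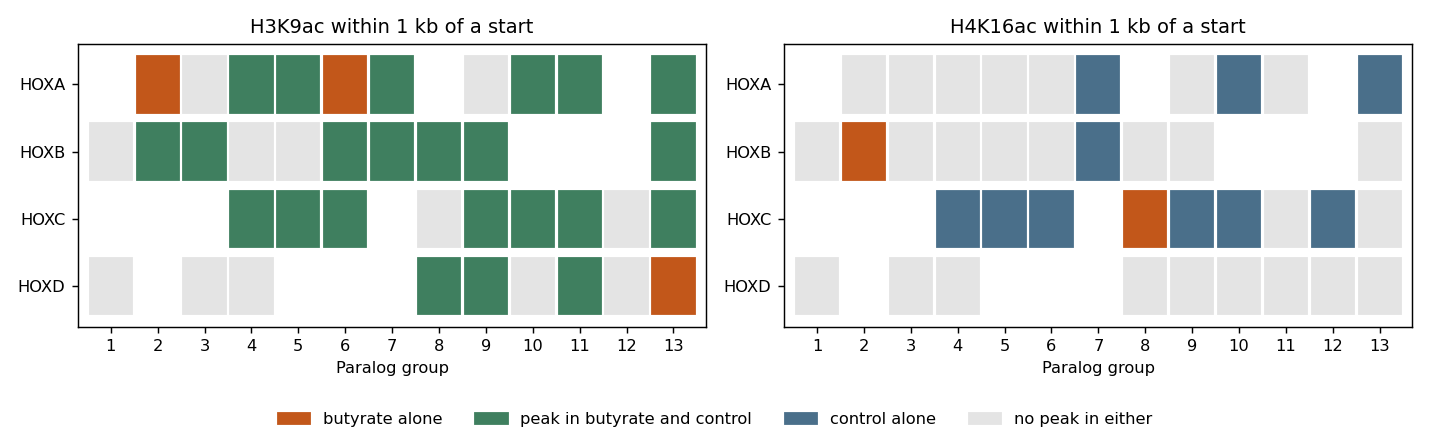
Promoter peak class of each HOX gene, by paralog group (horizontal axis) and cluster (rows), for H3K9ac on the left and H4K16ac on the right. Of the 39 genes, 24 had H3K9ac in both conditions, 3 with butyrate alone and 12 in neither, while H4K16ac was in control alone at 10 and with butyrate alone at 2; white cells have no gene in that cluster or none that is shown.

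The clusters as a whole were far more acetylated than the genome. H3K9ac peaks covered 22.9% of the 527945 bases of the 4 clusters with butyrate and 12.7% in control, beside 1.97% and 0.67% of the genome. That is 11.6 times the genome's share with butyrate and 18.9 times in control. The covered length was 1.81 times as large with butyrate as in control, beside 2.95 times for the genome. The clusters held 88 peaks with butyrate and 49 in control. Covered length moves with the length of the lists: with equal numbers of top peaks the ratio was 1.32 in HOXA, 1.62 in HOXB, 1.37 in HOXC and 2.14 in HOXD.

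HOXA had the most H3K9ac and HOXD the least, in both conditions. In HOXA 42.8% of bases lay under a peak with butyrate and 28.8% in control, a ratio of 1.48. In HOXC it was 31% with butyrate and 16% in control, a ratio of 1.94. In HOXB it was 15.4% with butyrate and 6.97% in control, a ratio of 2.21, and in HOXD 7.86% with butyrate and 3.13% in control, a ratio of 2.51. The order of the clusters was the same in both lists. The ratio was larger the less a cluster was covered in control, also with equal numbers of top peaks. At a fold of at least 5 that order did not hold, with 1.47 in HOXA, 1.1 in HOXC and 1.73 in HOXB. Control cover is also the divisor of the ratio, so no link between them is read from the order. HOXB is long because HOXB13 stands apart from the other genes; from HOXB1 to HOXB9 the cover was 26.7% with butyrate and 13.2% in control. With the full lists, which differ in length, all 4 ratios were below that of the genome. The genome ratio was not computed with equal numbers of top peaks.

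**Figure D2:**
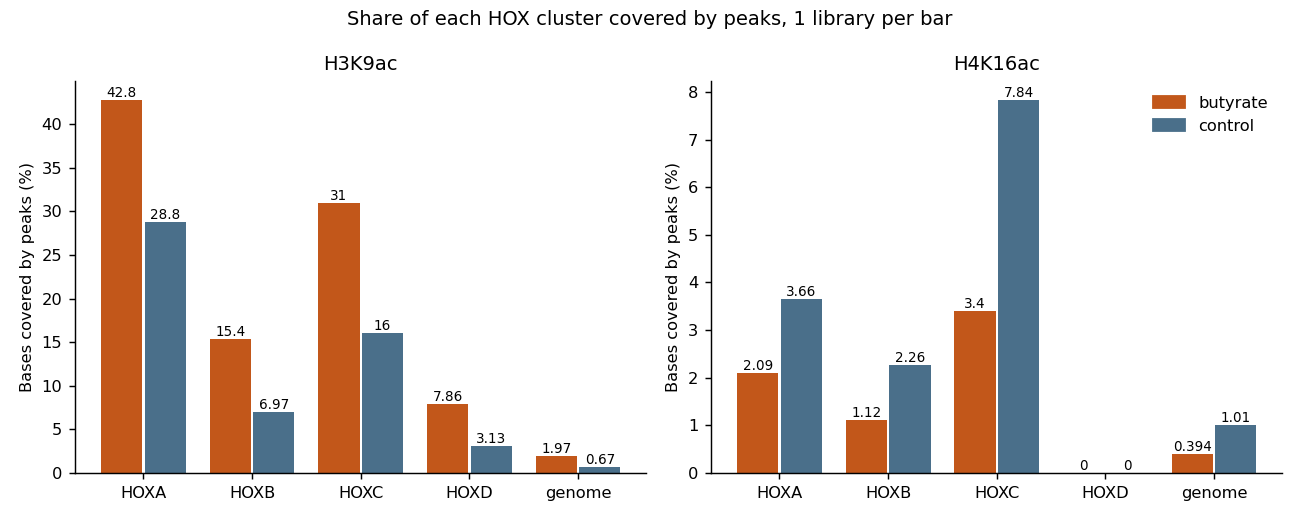
Percent of bases under H3K9ac peaks (left) and H4K16ac peaks (right) in each HOX cluster and in the genome, butyrate beside control, with 1 library per bar. H3K9ac cover was 42.8% and 28.8% in HOXA and 7.86% and 3.13% in HOXD, with butyrate and in control; H4K16ac peaks were absent from HOXD.

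Within 3 of the clusters, H3K9ac lay mostly on the side of paralog group 13. Cut at its midpoint, HOXA was covered over 68.1% with butyrate and 51.2% in control on the HOXA13 side, and over 17.4% with butyrate and 6.41% in control on the other side. In HOXC the side of HOXC13 had 38.5% with butyrate and 23.3% in control, and the other side 23.6% with butyrate and 8.73% in control. In HOXD the side of HOXD13 had 15.7% with butyrate and 6.27% in control, while the side of HOXD1, with HOXD4 and HOXD3, had no peak in either list. HOXB differed: its HOXB13 side, mostly free of genes, had 3.69% with butyrate and 1.01% in control, and its other side 27.1% with butyrate and 12.9% in control. That midpoint lies beyond HOXB9, so the cut does not show position among HOXB1 to HOXB9. With HOXB cut into 10 equal pieces, that of HOXB7 to HOXB9 had 56.3% with butyrate and 31.3% in control. Towards HOXB1 the next pieces had 39.6% and 16.9%, 3.08% and 0, 20.1% and 5.35%, and 16.6% and 11%. The contrast between the sides was present in each list taken alone.

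The densest stretch was the end of HOXA. With the cluster cut into 10 equal pieces, the piece with HOXA13 was covered over 92% with butyrate and 71.5% in control. The piece with HOXA11 and the upstream start of HOXA10 had 93.5% with butyrate and 76.4% in control, and the piece with the downstream start of HOXA10 had 92.5% with butyrate and 86.8% in control. The next piece, with HOXA9, had 13.3% with butyrate and 4.62% in control. H4K16ac peaks covered 7.99% of that piece with butyrate and 24.5% in control, so it was not free of acetylation. Beyond the cluster ends the H3K9ac cover was low as well. It was 7.31% with butyrate and 5.25% in control in the 100 kb past HOXA13. In the 100 kb past the opposite end it was 0.757% with butyrate and 0 in control.

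**Figure D3:**
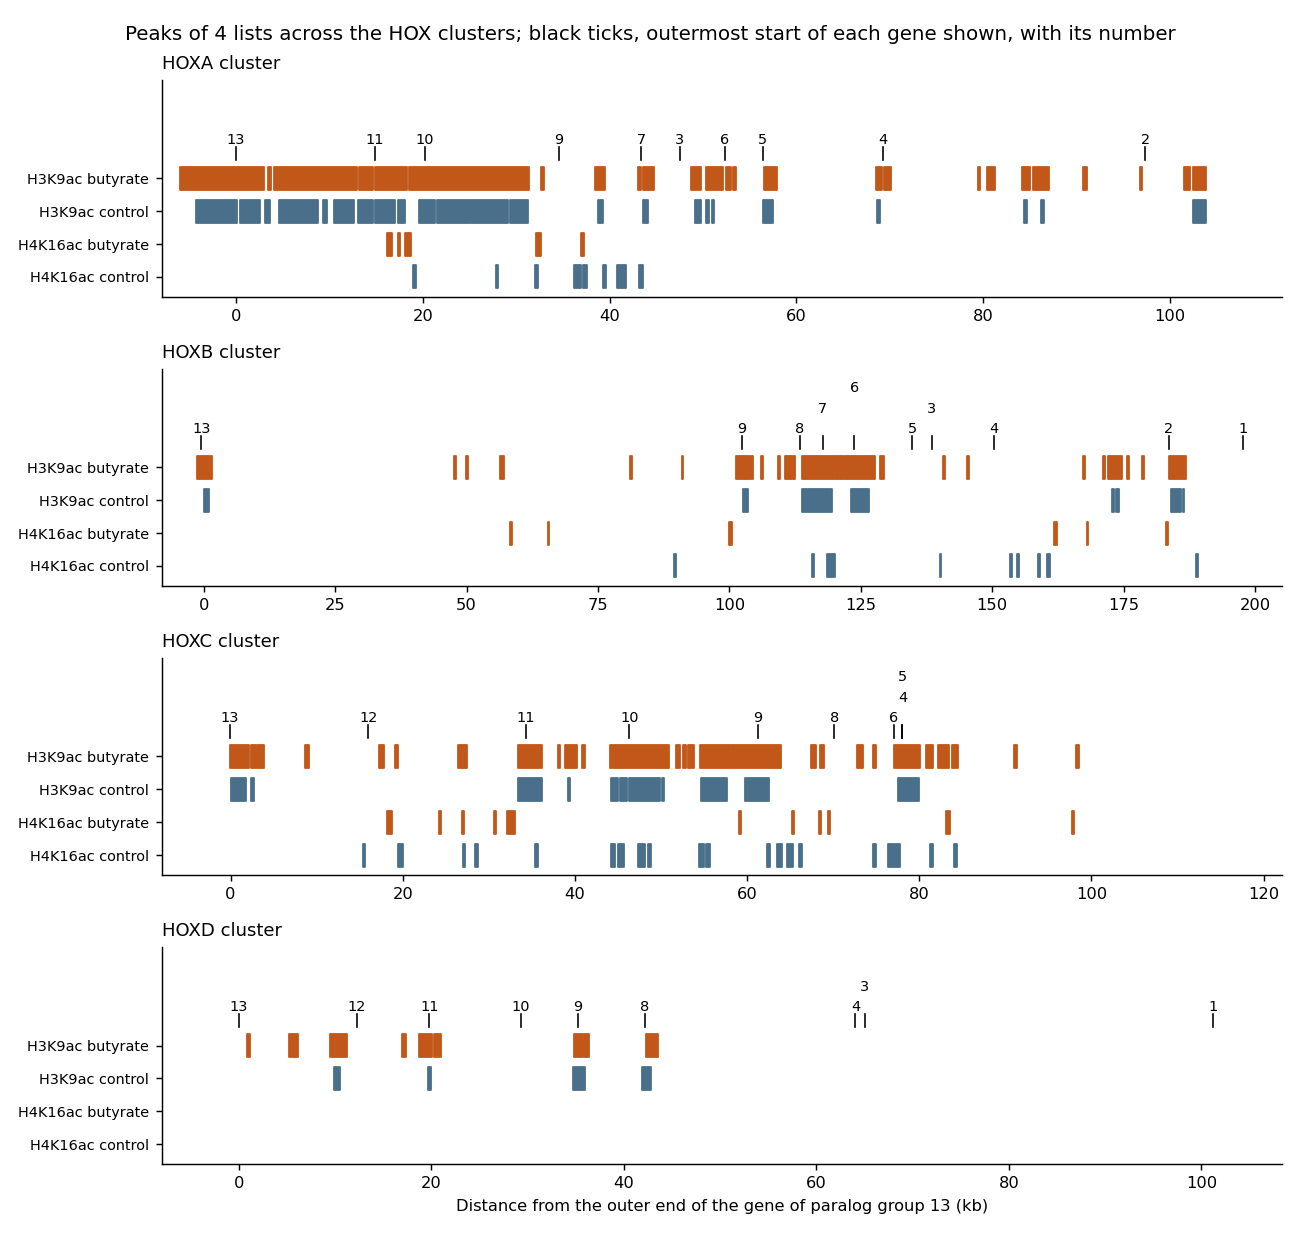
Peaks across each HOX cluster, drawn to scale against the distance from the outer end of the gene of paralog group 13 in kb, in 4 rows per cluster (H3K9ac with butyrate, H3K9ac in control, H4K16ac with butyrate, H4K16ac in control) with numbered ticks at the starts of the genes shown. H3K9ac runs almost unbroken from HOXA13 to HOXA10, and the HOXD side from HOXD4 to HOXD1 is empty in all 4 lists.

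Wide butyrate peaks spanned several separate control peaks. All 49 control H3K9ac peaks in the clusters overlapped a butyrate peak, beside 92.4% of the whole control list. Of the 88 butyrate peaks 35 overlapped a control peak (39.8%, beside 23% of the whole list), and 11 of these 35 (31.4%) spanned more than 1 control peak, beside 18.7% in the whole list. The widest was a peak of 12807 bp at chr7:27168764-27181570, over HOXA10 and the microRNA gene MIR196B, with 27 summits. It was the 7th widest of the butyrate list and overlapped 4 control peaks, the widest of them 3926 bp. A peak of 9081 bp at chr7:27197088-27206168 covered the starts of HOXA13 and of HOTTIP, a non-coding RNA that acts on the HOXA end, and also overlapped 4 control peaks. The widest control peak of the cluster was 4481 bp, at chr7:27199973-27204453, and lay inside it.

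The strongest HOX peak with butyrate had no HOX start within 1 kb. It measured 8270 bp at chr7:27187200-27195469, over parts of HOXA11-AS and the 3′ end of HOXA13, with a fold of 8.61 and a −log10 q of 27.63, and it overlapped 3 control peaks. In control the strongest was the HOXA11 peak of 2148 bp, with a fold of 8.63 and a −log10 q of 24.63, against a HOXA11 peak of 3434 bp with a fold of 7.18 and a −log10 q of 20.17 with butyrate. HOXA11 is a gene of uterine development. In HOXC the widest butyrate peak had 6312 bp at the start of HOXC10 and overlapped 4 control peaks, the widest of which had 3645 bp. In HOXB it had 6007 bp over HOXB7 and HOXB8, against 4128 bp in control, and in HOXD 1745 bp upstream of HOXD12, against a widest control peak of 1241 bp at HOXD9.

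The 53 butyrate peaks with no control partner were small and mostly lay away from starts. Their median width was 431 bp, their median fold 3.08 and their median −log10 q 3.0. The 35 shared ones had a median width of 1745 bp, a fold of 5.55 and a −log10 q of 11.52. At HOX starts lay 10 of the 53 (18.9%) and 24 of the 35 (68.6%). HOXB and HOXC held 19 unshared peaks each, HOXA 11 and HOXD 4. Those of HOXD had a median −log10 q of 7.36, against 2.57 to 3.88 in the other clusters, and included the peaks of HOXD13 and one of HOXD11.

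At starts with H3K9ac in both conditions, signal strength moved in both directions. The number of reads stacked at the highest summit, recovered from the authors' fold and p and divided by the depth in M, was compared at 23 HOX genes. The log2 ratio of butyrate to control had a median of 0.05 and ran from −0.58 to 1.32, and 12 of 23 genes (52.2%) were higher with butyrate. HOXC4, HOXC5 and HOXC6 enter separately with the same ratio of −0.37 from a shared start, which weighs on the median and the share. Over 10671 genes of the same kind the median was −0.16 and 32.4% were higher, with 10th and 90th percentiles of −0.59 and 0.35. A ratio of 0 is therefore not the middle of these 2 libraries.

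HOXD11, a gene of the forearm and kidney, had the largest ratio among HOX genes. Its summit held 1.23 reads per M with butyrate and 0.49 in control, a log2 ratio of 1.32, rank 8 of 10671. The fold was 7.6 and the −log10 q 18.99 with butyrate, against a fold of 3.74 and a −log10 q of 3.27 in control. Its peak had 1354 bp with butyrate and 385 bp in control. All 300 promoter bases printed above lay under the butyrate peak and 206 under the control peak. HOXB9 came next with 1.19 reads per M with butyrate and 0.53 in control, a log2 ratio of 1.16, and its peak had 2539 bp with butyrate and 827 bp in control. HOXD8 had 0.95 with butyrate and 0.62 in control, a log2 ratio of 0.63. All of these lay above the 90th percentile of all genes, as did HOXA4 with 0.49 and HOXB13 with 0.42.

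HOXA11 and HOXA13 of the dense HOXA end, and genes of the middle of HOXC, went the other way. HOXA10, at the same HOXA end, had 1.26 reads per M with butyrate and 1.31 in control. Its log2 ratio of −0.06 was above the median of −0.16 of all genes. HOXA11 had 1.26 reads per M with butyrate and 1.89 in control, a log2 ratio of −0.58, near the 10th percentile of all genes. HOXA13 had 1.36 with butyrate and 1.77 in control, HOXC10 had 1.33 with butyrate and 1.64 in control, and HOXC9 had 1.26 with butyrate and 1.52 in control. Their log2 ratios were −0.37, −0.31 and −0.27. The shared start of HOXC4, HOXC5 and HOXC6 had 0.95 with butyrate and 1.23 in control, although its whole peak had the higher −log10 q with butyrate (21.57, against 11.25 in control), from a summit outside the window. HOXB6 and HOXB7 both had a log2 ratio of −0.32. All of these ratios lay within the 10th to 90th percentile range of all genes, so they were not unusual for these libraries.

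**Figure D4:**
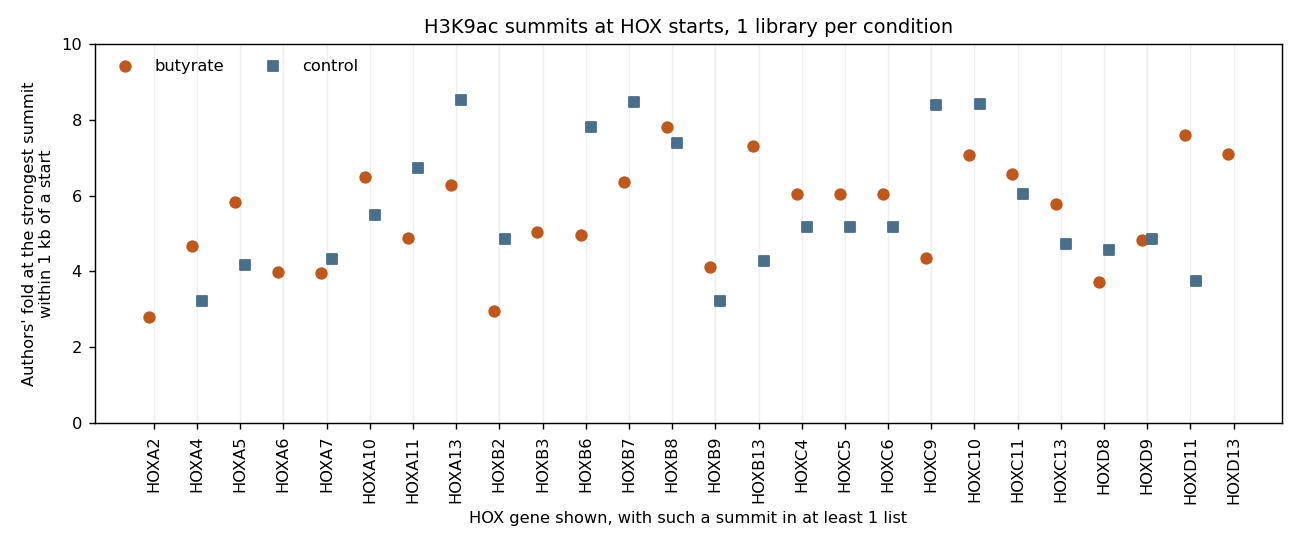
The authors' fold over background at the H3K9ac summit with the highest −log10 q within 1 kb of each HOX start (vertical axis), with butyrate (circles) and in control (squares), for HOX genes shown with such a summit in at least 1 list. HOXD11 had 7.6 with butyrate and 3.74 in control and HOXB13 had 7.31 and 4.27, whereas HOXA13 had 6.27 and 8.52 and HOXC9 had 4.35 and 8.38.

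HOXB13, a prostate and tail-end gene, was among those with the stronger butyrate peak, with a fold of 7.31 and a −log10 q of 15.42 against a fold of 4.27 and a −log10 q of 4.61 in control. HOXC13, a gene of hair and nails, had a peak with a −log10 q of 15.19 with butyrate and 8.89 in control. The genes named here from the cluster ends thus ranged from a peak with butyrate alone at HOXD13, through peaks in both conditions at HOXA13, HOXB13, HOXC13 and the start of HOXC4, to none at HOXB1 and HOXD1. That HOXC4 start is shared with HOXC5 and HOXC6 and lies well inside the cluster. The last of 10 equal pieces at that end of HOXC had no H3K9ac cover in either list. The piece before it had 2.17% with butyrate and 0 in control. The strongest HOXD promoter in control was HOXD9, with a −log10 q of 7.35, against 9.01 for HOXD9 with butyrate.

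H4K16ac gave the reverse count. With butyrate 2 of 39 HOX genes had a promoter peak (5.13%, exact 95% interval 0.627 to 17.3), beside 4.64% of all genes, and in control 10 of 39 (25.6%, 13 to 42.1), beside 18.8% of all genes. None had one in both, beside 2.07% of all genes. The 10 genes with a control peak, at 8 separate starts, all lacked one with butyrate, beside 89% of the 3713 genes with a control peak. Some of these calls turned on the 1 kb window: with 2.5 kb, HOXA10, HOXC9 and HOXC12 had a peak in both conditions. At HOXA10 the control peak lay 939 bp from a start and the nearest butyrate peak 1502 bp. The 2 genes with butyrate peaks, HOXB2 and HOXC8, were 6.9% of the 29 without a control peak (0.846 to 22.8), beside 3.17%. In HOX genes as in all genes, most control peaks had no counterpart with butyrate.

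Control H4K16ac was most frequent in HOXC, where 6 of 9 genes had one, beside 18.8% of all genes. HOXC4, HOXC5 and HOXC6 share a start and its peak but count separately in both the 6 and the 9. The start shared by HOXC4, HOXC5 and HOXC6 had the strongest, with a fold of 5.51 and a −log10 q of 5.25, rank 43 of 73586 in the control list and with no butyrate peak at that start. HOXC10 had 1.78, HOXC12 had 1.09 and HOXC9 had 0.59 as −log10 q. In HOXA the control peaks were at HOXA10 with a −log10 q of 1.93, HOXA13 with 1.27 and HOXA7 with 1.06. In HOXB there was 1, at HOXB7, with 3.07 and a width of 1494 bp. The butyrate peaks were weak, with a −log10 q of 0.36 at HOXB2 and 0.21 at HOXC8. Of these promoters, HOXA10, HOXB7, HOXC10 and the start of HOXC4, HOXC5 and HOXC6 had a control q of 0.05 or less.

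Over whole clusters, H4K16ac peaks covered 1.6% of HOX bases with butyrate and 3.34% in control, beside 0.394% and 1.01% of the genome. The HOX share was 4.07 times the genome's with butyrate and 3.29 times in control. HOXA had 2.09% with butyrate and 3.66% in control, HOXB 1.12% and 2.26%, and HOXC 3.4% and 7.84%. The ratios of butyrate to control were 0.571, 0.493 and 0.434; with equal numbers of top peaks they were 0.911, 0.839 and 0.859. HOXD had no H4K16ac peak in either list. Of 22 HOX peaks with butyrate 1 had a q of 0.05 or less, against 15 of 37 in control. That butyrate peak, of 610 bp at chr7:27181363-27181972, lay 1502 bp from a HOXA10 start with a fold of 4.37. The widest butyrate peaks of the other clusters measured 908 bp in HOXC and 489 bp in HOXB, against 872 bp and 1494 bp in control, and in HOXA the widest control peak had 968 bp.

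H4K16ac peaks seldom lay in the same place in both conditions. Of 22 butyrate peaks 4 overlapped a control peak (18.2%, beside 13.4% of the whole list), and of 37 control peaks 5 overlapped a butyrate peak (13.5%, beside 6.15%). In the clusters 8 of 22 H4K16ac peaks with butyrate (36.4%) and 13 of 37 in control (35.1%) overlapped an H3K9ac peak of the same condition, beside 11.9% and 5.6% in the whole lists. H3K9ac also covered more of the HOX bases than of the genome, and its part in these shares was not tested. At promoters, 9 of the 24 HOX genes with control H3K9ac also had control H4K16ac (37.5%, 18.8 to 59.4), beside 30.8% of all genes. HOXC4, HOXC5 and HOXC6 share a start and its peaks but count separately in both the 9 and the 24. The share and its interval therefore lean on a repeated start, and no excess over all genes is read from them. HOXC12 had control H4K16ac without H3K9ac.

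MicroRNA genes inside the clusters repress HOX messages, so their 6 hairpins were set beside the peaks. The mature sequences below, from RefSeq (GRCh38.p14), are shown because they differ in the marks around them, with the seed, bases 2 to 8, in capitals.
hsa-miR-196b-5p: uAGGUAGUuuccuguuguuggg
hsa-miR-196a-5p: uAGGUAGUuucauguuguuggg
hsa-miR-10a-5p: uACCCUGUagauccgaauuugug
The products of MIR196B and of MIR196A1 and MIR196A2 share the seed AGGUAGU, while that of MIR10A differs. MIR196B, at chr7:27169480-27169563 between HOXA9 and HOXA10, lay under H3K9ac in both conditions, in the wide HOXA10 peak with a −log10 q of 17.13 with butyrate and in a peak of 1854 bp with a −log10 q of 22.84 in control. MIR196A2, at chr12:53991738-53991847 between HOXC10 and HOXC9, touched a butyrate peak of 354 bp with a −log10 q of 2.65, and its nearest control peak lay 1665 bp away. MIR196A1, MIR10A, MIR10B and MIR615 had no H3K9ac peak within 1 kb in either condition. H4K16ac was within 1 kb of none of the 6. The 2 loci of miR-196a-5p thus differed, and so did the members of the shared seed.

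Of 14 non-coding RNA genes of the clusters, 8 had H3K9ac with butyrate and the same number in control. All protein-coding genes had it at 63.9% with butyrate and 54.7% in control, so no excess is read from this count. The share over all non-coding genes was not computed. HOTTIP had a −log10 q of 16.54 with butyrate and 24.36 in control, from the peaks it shares with HOXA13. HOTAIR, which lies between HOXC11 and HOXC12 and can act on HOXD, had 19.49 with butyrate and 14.37 in control, from the peak it shares with HOXC11. HOTAIR had no strand in the files and was tested at both gene ends. HAGLR and HAGLROS, near HOXD1, had none. Antisense genes of this kind share their peaks with the HOX starts beside them, and ChIP-seq reads cannot be given to either strand.

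Most genes on the lists of TALE partners, Polycomb, and trithorax and H3K27 demethylases had H3K9ac in both conditions. All 9 TALE homeodomain partners had a H3K9ac promoter peak with butyrate and 7 in control. PBX4, with a −log10 q of 9.81, and PKNOX2, with 1.73, had it with butyrate alone, and MEIS1 had 17.28 with butyrate and 9.42 in control. Of 17 Polycomb genes 17 had H3K9ac with butyrate and 16 in control, and PHC2, with a −log10 q of 9.14, had it with butyrate alone. All 11 genes on the trithorax and H3K27 demethylase list, which also holds DOT1L, had it in both. These shares stood above the 63.9% with butyrate and 54.7% in control of all genes. None of the 8 ParaHox and EVX genes, the nearest relatives of HOX genes, had H3K9ac in either condition, EVX1 and EVX2 at the cluster ends included.

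H4K16ac was found with butyrate at 0 of the 9 TALE genes, 1 of the 17 Polycomb genes, 2 of the 11 trithorax and demethylase genes and 1 of the 8 ParaHox and EVX genes, and in control at 1, 5, 2 and 0 of them, beside 4.64% of all genes with butyrate and 18.8% in control. The gene with butyrate in the last list was CDX1, with a −log10 q of 0.62. Of the 8 genes that flank the clusters, 7 had H3K9ac with butyrate and 6 in control, beside 63.9% and 54.7% of all genes. TTLL6, beyond HOXB13, had it with butyrate alone with a −log10 q of 5.47, and SKAP1, beyond HOXB1, had none. H4K16ac was absent from all 8 with butyrate and present at 3 in control, HIBADH, CALCOCO1 and SMUG1, beside the same 4.64% and 18.8% of all genes. The neighbours of HOXD, MTX2 and LNPK, had H3K9ac in both conditions, with −log10 q of 10.58 and 16.32 with butyrate and of 14.65 and 23.14 in control, on either side of a cluster that had none from HOXD4 to HOXD1.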

How the data were processed

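Of 8 samples, 6 had peak tables; the 2 inputs were not analysed here. MACS2 2.1.0 and CASAVA 1.7 are named in the submitters' processing notes, with build hg19, or GRCh37. The tables' gene positions lay a median of 66.0 bp from RefSeq GRCh38.p14 starts over 13608 genes, 98.6% of them within 100 kb, so positions are read as GRCh38. Per the file headers, the authors deposited for each peak summit a fold enrichment, a −log10 p-value and a −log10 q-value, with further columns for the gene around it. A peak score in the deposited tables repeats the −log10 values on a larger scale and was not used for any result. The peak names of the H4K16ac tables carry another label (k12), and H4K16ac here means the libraries so labelled.

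Rows were merged to peaks on chromosomes 1 to 22 and X. A peak within 1 kb of the authors' start or the outermost RefSeq start was a promoter peak; 263 of 19970 protein-coding genes without a usable start or position were left out, and 884 with no strand and no peak near either end counted as having none. HOXB4 was given the strand of its cluster. Overlap meant at least 1 bp. Read numbers were recovered from fold and p with a genome size of 2.7 Gb. Intervals are exact (Clopper-Pearson) and cover counting only, since each group has 1 library and no test was made. Genes were named where a promoter peak differed between conditions, at cluster ends, and for the strongest and widest peak of each cluster and list; other genes named came from lists, up to 5 changed per list. Some results that this rule takes are not reported here, though the counts include them. HOXB9, HOXD8, HOXB6, HOXA4, MEIS1, EVX1, EVX2, MTX2, LNPK and the non-coding genes without a change were named after their values were seen. The members and lists were chosen with earlier results of these data known. Alternatives were a peak limit, list length, promoter window, cluster ends, overlap and the authors' closest-gene columns; 2 more, every RefSeq start and HOXB1 to HOXB9, were added after seeing the data. Python 3.11.15, pandas 2.3.3, numpy 2.4.6, scipy 1.17.1 and matplotlib 3.10.9 were used, and scripts were tested on simulated data.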

Additional observations from a re-analysis of the deposited data

How the results depend on the processing

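No paired analysis was possible because each group has 1 library and no test was made. Of 95 recomputed values, 65 were equal to the reported ones or within 1.5 times of them, and 30 were not; none reversed. All peaks of both H3K9ac lists already had a q of 0.05 or less. The H3K9ac values at that limit, counted in the 65, therefore could not change and say nothing about stability. The 3 HOX genes with H3K9ac at butyrate alone became 6 at a −log10 q of at least 5, 5 at a fold of at least 5 and 5 with a 2.5 kb window, beside 9.31% of all genes as reported and 7.53%, 8.18% and 10.6% under those settings. The 0 with H3K9ac in control alone became 1 at that fold (HOXC9) and 2 with the authors' closest-gene columns, beside 6.47% and 4.35% of all genes, and the 24 with both became 15 and 11, beside 38.4% and 34.8%. The HOXC cover ratio of 1.94 became 1.1 at that fold. The 2 genes with H4K16ac at butyrate alone became 0 at a q of 0.05 or less, at a −log10 q of at least 5 and at a fold of at least 5, and 4 with a 2.5 kb window. The 10 with H4K16ac in control alone became 6, 3 and 3 under those limits, 5 with a 500 bp window and 3 with the authors' columns, beside 16.8% of all genes as reported and 10.5%, 0.0964%, 0.289%, 11.6% and 10.3% under those settings. The 3 left at a −log10 q of at least 5 and at a fold of at least 5 were HOXC4, HOXC5 and HOXC6. They stand for 1 peak at 1 shared start, and they also count separately in the 6 and the 5. The 0 with H4K16ac in both became 5 at 2.5 kb. The H4K16ac cover ratios of 0.571 in HOXA, 0.493 in HOXB and 0.434 in HOXC became 0.911, 0.839 and 0.859 with equal numbers of top peaks, 0.248, 0 and 0 at a q of 0.05 or less, and 0 in HOXA and HOXC at a fold of at least 5 and 0 in HOXC at a −log10 q of at least 5; from HOXB1 to HOXB9 it was 0.256. The HOXA H4K16ac peaks shared, 2 with butyrate and 3 in control, became 0 and 0 when the overlap had to take up at least 50% of the shorter peak. The cause was not tested, other than that a stricter limit leaves fewer peaks. No ratio could be had for H4K16ac in HOXD, for H3K9ac in HOXD at a fold of at least 5, nor for H4K16ac in HOXB at that fold and in HOXA and HOXB at a −log10 q of at least 5. With equal lists, HOXD13 and HOXA6 still had H3K9ac with butyrate alone, and HOXA2 had none. Nothing here has replicates, so differences between the lists, depth and treatment cannot be told apart.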
